A study of Arabidopsis thaliana with 6 samples.

Results

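RALF peptides (rapid alkalinization factors) are small, cysteine-rich signals that plant cells secrete, named for the rise in pH they cause outside the cell. Many are cut from a longer precursor by the protease S1P. They bind receptor kinases of the FERONIA family together with membrane-anchored co-receptors and leucine-rich extensins of the cell wall, and through these they act on cell expansion, root growth, immunity and pollen tubes.

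The genes described here are those whose symbol is RALFL (RALF-like) followed by a number and which the Arabidopsis array measured with a probe set of their own. They number 11 of the 32 RALFL genes that the TAIR10.1 gene table lists, and of 13350 genes in all that had a probe set of their own. Each of the 11 had a single such probe set. They are RALFL18 (AT2G33130), RALFL22 (AT3G05490), RALFL24 (AT3G23805), RALFL25 (AT3G25165), RALFL26 (AT3G25170), RALFL27 (AT3G29780), RALFL28 (AT4G11510), RALFL31 (AT4G13950), RALFL32 (AT4G14010), RALFL33 (AT4G15800) and RALFL34 (AT5G67070). The other 21 RALFL genes, and RALF1 and RALF23, were not analysed here. In the gene table RALFL25 and RALFL26 are next to each other on chromosome 3, with no protein-coding gene between them, and they are the only neighbouring pair among the 11.

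The samples were whole Arabidopsis thaliana seedlings, 14 days old, of the pkl-1 mutant (3 arrays) and of the Col-0 wild type (3 arrays), described as biological replicates. PICKLE (PKL) is a chromatin remodelling ATPase, and the pkl-1 seedlings carry a mutant allele of the gene. All seedlings came from bleached seed and grew on Murashige and Skoog agar in constant light. Values are log2 signals, so that a difference of 1 is 2-fold. The probe set of PKL itself is unnamed in the tables used here, so that the mutated gene was not checked. Of 31 marker genes listed for leaf, root, flower and pollen, 6 could be read. The leaf gene LHCB4.2, which encodes a light-harvesting protein, was at 12.0 to 12.4 log2 units in pkl-1 and at 12.7 to 12.8 in wild type. The root gene PYK10, a beta-glucosidase of root and lower stem, was at 11.9 to 12.1 in pkl-1 and at 11.8 to 12.0 in wild type. Its difference of 0.02 ± 0.09 log2 units (SE) did not pass (limma adjusted p = 0.959). The root hair expansin genes EXPA7 and EXPA18 were at 3.20 to 3.96 and 4.38 to 4.83 in pkl-1, against 3.42 to 4.18 and 4.30 to 5.08 in wild type, with differences of -0.33 ± 0.28 and -0.17 ± 0.25 log2 units (SE) that did not pass (limma adjusted p = 0.657 and 0.820). No flower marker was read. The pollen tube receptor genes ANX1 and ANX2 were near the low end of the signal, at 1.5 to 2.0 in pkl-1 and at 1.4 to 2.0 in wild type.

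The first question was which of the 11 genes gave signal in whole seedlings. The deposited table has no detection call, and a gene was counted as above the low end of the signal where all arrays exceeded 4 log2 units. Of the 11 genes, 6 did so in pkl-1 and wild type alike, as did 53.7% of all 22746 probe sets tested. These were RALFL22, RALFL24, RALFL31, RALFL32, RALFL33 and RALFL34, whose values ran from 6.24 to 10.3 log2 units over all arrays. The other 5 genes, RALFL18, RALFL25, RALFL26, RALFL27 and RALFL28, ran from 1.25 to 3.14. No value of any of the 11 lay between 3.14 and 6.24, and the same 6 genes were counted with the line at 3 or at 5 log2 units. Levels of different probe sets also reflect how well each binds its target, so the genes are not ranked against each other.

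**Figure D1:**
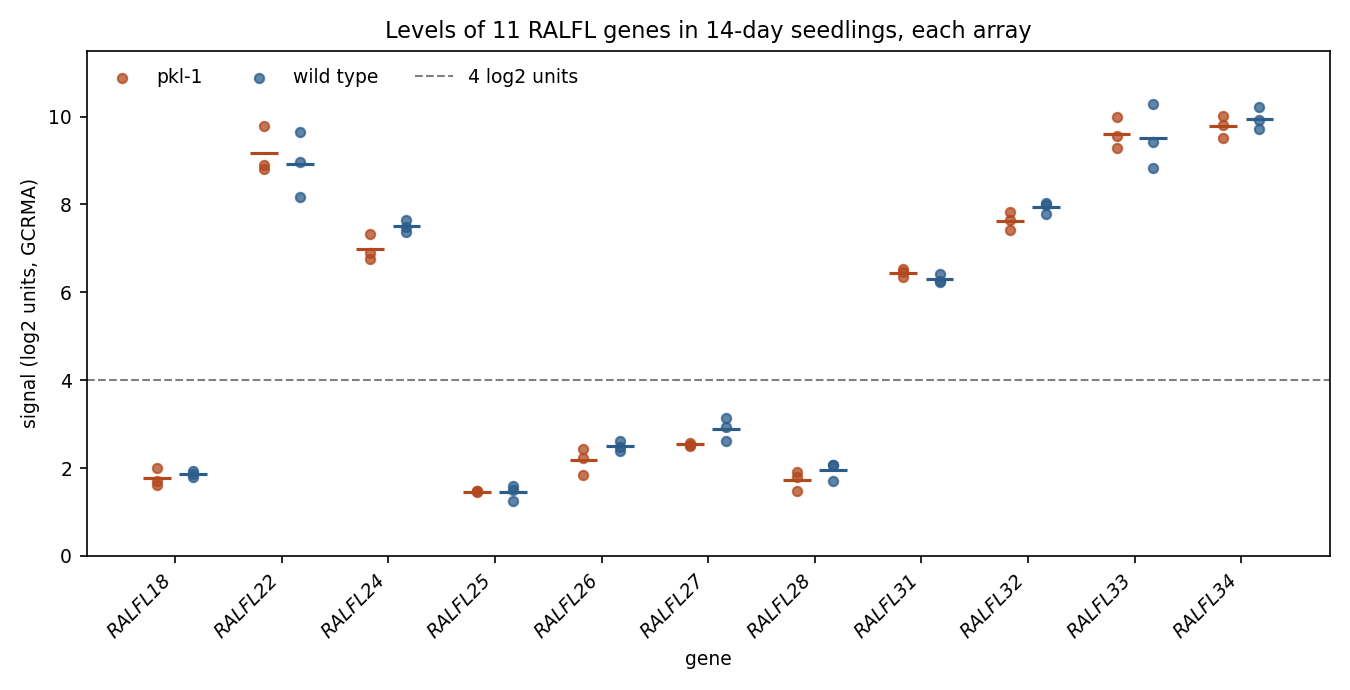
Signal in log2 units (y axis) of the 11 RALFL genes (x axis) on each of the 3 pkl-1 arrays (left of each pair) and 3 wild-type arrays (right); points are arrays, short bars are means and the dashed line is 4 log2 units. Of the 11 genes, 6 lie at 6.24 or above on every array and 5 at 3.14 or below.

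The second question was whether the genes differed between pkl-1 and wild type. By limma's moderated test with Benjamini-Hochberg adjustment over all probe sets, 0 of the 11 genes passed an adjusted p of 0.05, against 2.37% of all probe sets (1.06% higher and 1.31% lower in pkl-1). At an unadjusted p under 0.05 the count was 1, RALFL24, against 14.9% of all probe sets. Adjusted p-values of the 11 genes ran from 0.211 to 0.969. By their means 7 of the 11 were lower in pkl-1, against 47.5% of all probe sets, with a median difference of -0.16 log2 units against 0.01 over all probe sets. Among the 6 genes above the low end, 3 were lower and 3 higher, with a median of -0.03. The pkl-1 arrays did not overlap the wild-type arrays for 2 of the 11 genes, RALFL24 and RALFL27, and both were lower in pkl-1. Over all probe sets the groups did not overlap in 21.0%, and in 10.4% every pkl-1 array was the lower. Of the 6 markers read, 1 passed, LHCB4.2, which was lower in pkl-1 by 0.50 ± 0.09 log2 units (SE, limma adjusted p = 0.0355). It was the only gene read of 8 listed for leaf. Its part in the differences of the RALFL genes was not tested. In whole seedlings fewer cells of a type and less RNA per cell cannot be told apart.

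RALFL24 had the smallest p of the 11. Its level was 7.32, 6.76 and 6.90 log2 units in pkl-1, against 7.64, 7.49 and 7.37 in wild type. Every pkl-1 array was below every wild-type array, with pkl-1 replicate 1 only slightly under the lowest of them. The difference was -0.51 ± 0.17 log2 units (SE), with a 95% confidence interval of -0.90 to -0.11 before adjustment, and the limma adjusted p was 0.211. On the linear scale pkl-1 was at 0.704 of the wild-type level, with an interval of 0.535 to 0.927.

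RALFL32 was also lower by its mean without passing. It had 7.65, 7.83 and 7.42 log2 units in pkl-1, against 7.99, 8.03 and 7.79 in wild type. The groups overlapped at a single point, where pkl-1 replicate 2 exceeded wild-type replicate 3. The difference was -0.30 ± 0.14 log2 units (SE; interval -0.63 to 0.03; limma adjusted p = 0.381). Of the protein-coding genes next to a member in the gene table, 6 that are no members were measured. Of these 1 passed, AT4G14020 after RALFL32, against 2.37% of all probe sets. The neighbours were looked at after their values were seen, and a link between AT4G14020 and RALFL32 was not tested. AT4G14020 had 7.24, 7.40 and 7.36 log2 units in pkl-1, against 8.11, 7.85 and 7.93 in wild type. It was lower in pkl-1 by 0.64 ± 0.12 (SE, limma adjusted p = 0.0411). AT4G14000, on the other side of RALFL32, was at 0.17 ± 0.14 (SE, limma adjusted p = 0.631). The other neighbours that did not pass were RAD9 at -0.33 ± 0.18 and AT3G05500 at -0.27 ± 0.09 log2 units (SE) beside RALFL22, AT4G15790 at -0.48 ± 0.20 beside RALFL33 and AT3G25160 at 0.01 ± 0.12 beside RALFL25.

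RALFL31 had close values in all arrays. They were 6.45, 6.54 and 6.35 log2 units in pkl-1, against 6.41, 6.27 and 6.24 in wild type, with overlap. The difference of 0.14 ± 0.14 (SE) had an interval of -0.18 to 0.46 (limma adjusted p = 0.715), so that a difference of 2-fold lies outside it in either direction.

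RALFL34 encodes a peptide known for its part in the start of lateral roots and as a ligand of the receptor THESEUS1. Its level was 10.02, 9.80 and 9.52 log2 units in pkl-1, against 10.21, 9.91 and 9.71 in wild type. The groups overlapped over most of their range, and the difference was -0.16 ± 0.16 (SE; interval -0.54 to 0.21; limma adjusted p = 0.713).

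RALFL22 and RALFL33 had the widest intervals. RALFL22, a peptide linked to wall integrity and salt responses, had 8.81, 8.89 and 9.80 log2 units in pkl-1, against 8.17, 8.96 and 9.65 in wild type. RALFL33, a relative of RALF23 that is cut by S1P and acts in immune signalling, had 9.27, 9.56 and 9.99 in pkl-1, against 8.82, 9.41 and 10.29 in wild type. In both genes the pkl-1 arrays lay within or close to the wild-type range. The differences were 0.24 ± 0.39 log2 units (SE; interval -0.66 to 1.14) for RALFL22 and 0.10 ± 0.35 (SE; interval -0.70 to 0.90) for RALFL33, with limma adjusted p-values of 0.842 and 0.935. A 2-fold rise of RALFL22 is inside its interval in this fit. In the alternative fit with a replicate block, the same difference of 0.24 log2 units had an SE of 0.13. The sign of both differences turned when a single array was left out. Without wild type replicate 1 they were -0.14 and -0.24 log2 units, and without pkl-1 replicate 3 they were -0.08 and -0.09. In both genes these are the lowest wild-type array and the highest pkl-1 array, so that leaving out either must lower the difference. Between arrays of equal number, pkl-1 minus wild type was 0.64, -0.07 and 0.15 for RALFL22 and 0.45, 0.15 and -0.29 for RALFL33.

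**Figure D2:**
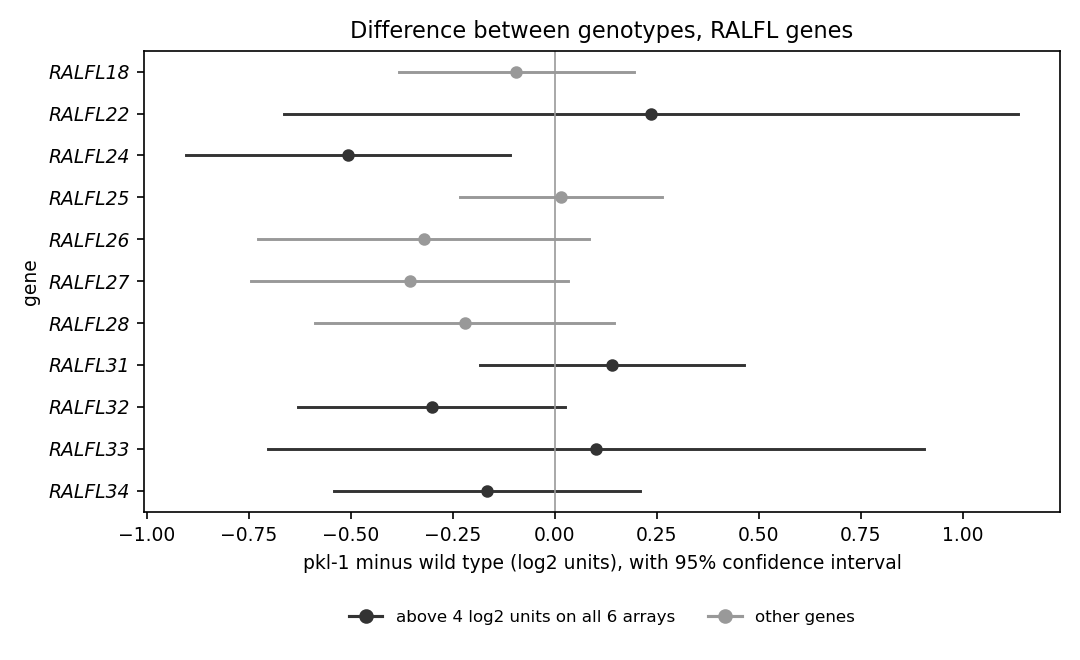
Difference between genotypes, pkl-1 minus wild type in log2 units (x axis), for each of the 11 RALFL genes (y axis); points are limma estimates, lines are 95% confidence intervals before adjustment, and dark symbols mark the 6 genes above 4 log2 units on all arrays. RALFL24 alone has an interval that does not reach 0, at -0.90 to -0.11.

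The 5 genes at the low end had levels at which the array's background correction sets the value. Their differences ran from -0.36 to 0.02 log2 units, with 4 lower and 1 higher in pkl-1. The median was -0.22, against -0.03 for the 6 genes above the low end. RALFL25 and RALFL26, whose peptides are known from pollen, were at 1.45 to 1.48 and 1.84 to 2.44 log2 units in pkl-1, against 1.25 to 1.60 and 2.38 to 2.61 in wild type. Their differences were 0.02 ± 0.11 and -0.32 ± 0.18 log2 units (SE). RALFL27 had 2.58, 2.51 and 2.53 in pkl-1, against 3.14, 2.92 and 2.62 in wild type, a difference of -0.36 ± 0.17 (SE; limma adjusted p = 0.384). RALFL18 and RALFL28 were at -0.09 ± 0.12 and -0.22 ± 0.16 log2 units (SE). All 5 genes stayed under 4 log2 units on each of the 3 pkl-1 arrays, so that none of them was brought above the low end in the mutant.

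The arrays of one genotype differed more in RALFL22 and RALFL33 than in the other members. For RALFL22 the standard deviation came to 0.55 log2 units over the pkl-1 arrays and 0.74 over the wild-type arrays, and for RALFL33 to 0.36 over the pkl-1 arrays and 0.74 over the wild-type arrays (n = 3 each). For RALFL31 it was 0.095 in pkl-1 and 0.093 in wild type. In RALFL22 and RALFL33, replicate 1 was the lowest and replicate 3 the highest array in pkl-1 and in wild type alike. Replicate 3 exceeded replicate 1 by 0.99 log2 units in pkl-1 seedlings and 1.48 in wild type for RALFL22, and by 0.72 in pkl-1 and 1.46 in wild type for RALFL33. RALFL34 had the opposite order in both genotypes, with replicate 3 below replicate 1 by 0.49 log2 units in pkl-1 seedlings and 0.50 in wild type. This pattern was looked for after the values were seen. The first order held in 2 of the 11 members and the opposite in 1, all of them above the low end. Over all probe sets, replicate 1 was lowest and replicate 3 highest in both genotypes in 6.17%, and the opposite held in 7.21%. Among the 12213 probe sets above 4 log2 units on all arrays, the counts were 934 and 1209. None of the 6 marker genes had either order. The 3′ minus 5′ signals of the GAPDH, actin and ubiquitin controls were higher in replicate 3 than in replicate 1 in pkl-1 and lower in wild type. For GAPDH they were 1.36 in replicate 3 and 1.29 in replicate 1 of pkl-1, against 1.29 and 1.47 in wild type. The labels name no batch shared by arrays of equal number.

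**Figure D3:**
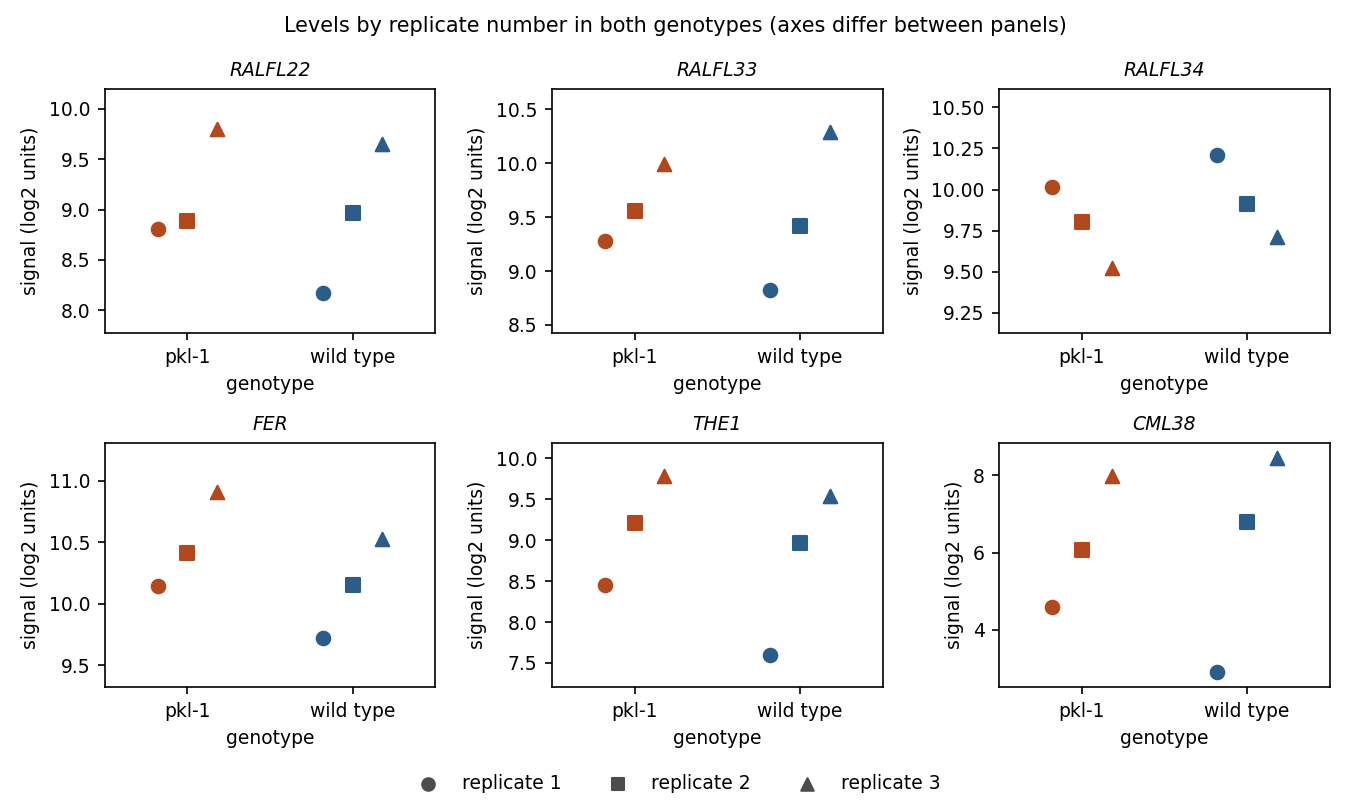
Signal in log2 units (y axis; scales differ between panels) by genotype (x axis, pkl-1 left) for RALFL22, RALFL33 and RALFL34 and for the listed pathway genes FER, THE1 and CML38; each symbol is 1 array and its shape gives the replicate number. The genes shown were picked after their values were seen, and other members above the low end, such as RALFL31, are left out. In pkl-1 and wild type, replicate 3 is the highest array in 5 panels and the lowest in the panel of RALFL34.

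A list of 42 genes of the RALF pathway was read beside the members, and 17 of these were measured by a probe set of their own. None of the 17 passed at a limma adjusted p of 0.05, against 2.37% of all probe sets, and 1 had an unadjusted p under 0.05, against 14.9%. Of the 17, 7 were lower and 10 higher in pkl-1 by their means, with a median difference of 0.03 log2 units. Only 4 of the 17 were above 4 log2 units on all arrays. Of these 4, 1 was lower and 3 were higher, with a median of 0.23. The gene table names 6 of them, and the other 11 it gives by locus alone.

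Among the receptors FER, which encodes FERONIA, had 10.14, 10.41 and 10.91 log2 units in pkl-1, against 9.72, 10.15 and 10.53 in wild type. Each group had 1 array outside the range of the other, and the difference was 0.35 ± 0.24 (SE; interval -0.20 to 0.91; limma adjusted p = 0.565). Between arrays of equal number, FER was higher in pkl-1 by 0.42, 0.26 and 0.38 log2 units. It passed in 1 alternative, the fit with a replicate block given in the last section. THE1, the receptor THESEUS1, had 8.46, 9.20 and 9.78 in pkl-1, against 7.60, 8.96 and 9.53 in wild type, a difference of 0.45 ± 0.50 (SE; limma adjusted p = 0.752). Without wild type replicate 1, the lowest wild-type array, the difference of THE1 was -0.10 log2 units. Between arrays of equal number, THE1 was higher in pkl-1 by 0.85, 0.24 and 0.25 log2 units. Both receptors were above the low end on all arrays and showed the order of replicates seen in RALFL22 and RALFL33. ANX1 and ANX2, receptors of the same family that act in pollen tubes, were near the low end with differences of 0.08 ± 0.14 and 0.15 ± 0.13 log2 units (SE). Some listed receptors are given by locus alone in the gene table. Of these, AT2G39360 was above the low end, at 0.11 ± 0.30 log2 units (SE, limma adjusted p = 0.914). AT4G39110, AT2G21480 and AT5G59700 were under 4 log2 units, with differences of -0.01 ± 0.20, 0.26 ± 0.18 and -0.06 ± 0.18 (SE), and none passed.

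The processing protease gene S1P had 4.71, 4.29 and 4.50 log2 units in pkl-1, against 4.48, 4.86 and 4.29 in wild type. The groups overlapped almost wholly, at a difference of -0.04 ± 0.22 (SE; limma adjusted p = 0.961). No co-receptor gene of the list was measured by a named probe set. A pair of further genes was picked out after their values were seen. CML38, a calmodulin-like protein, had the widest spread, with 4.59, 6.05 and 7.97 in pkl-1, against 2.92, 6.79 and 8.43 in wild type, and again replicate 1 was lowest and replicate 3 highest in both genotypes. Its difference was 0.16 ± 1.37 log2 units (SE). AT2G41970 was the 1 of 17 listed genes (5.88%) whose groups did not overlap, a smaller share than the 21.0% over all probe sets. It was at 3.04, 2.58 and 2.23 in pkl-1 and 3.18, 3.07 and 3.24 in wild type, all under 4 log2 units (limma adjusted p = 0.294). Together with AT2G39360, the genes FER, THE1 and CML38 make 4 of the 17 with replicate 1 lowest and replicate 3 highest in both genotypes, against 6.17% of all probe sets. Among the 4 listed genes above the low end on all arrays 3 had it, against 934 of 12213 such probe sets. That order was looked for after the values were seen, and its cause was not tested.

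**Figure D4:**
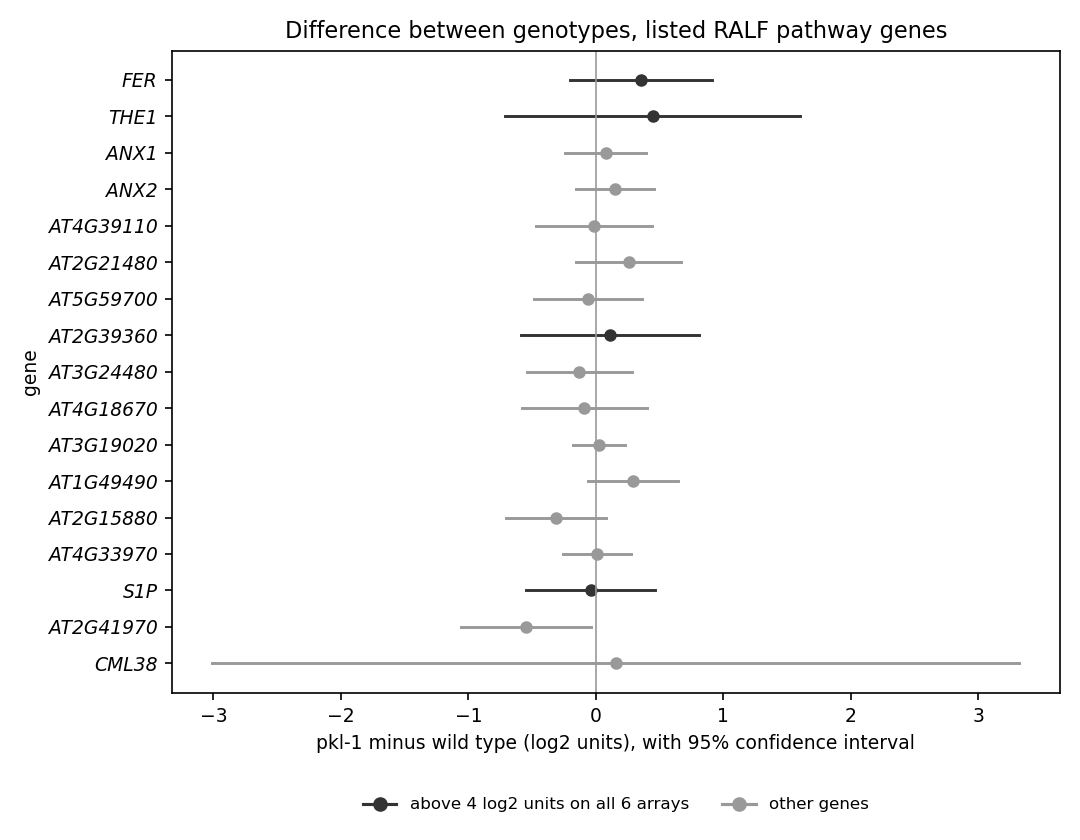
Difference between genotypes, pkl-1 minus wild type in log2 units (x axis), for the 17 measured genes of the RALF pathway list (y axis); points are limma estimates and lines are 95% confidence intervals before adjustment, with dark symbols for genes above 4 log2 units on all arrays. The estimates lie between -0.55 and 0.45, and the interval of CML38 is the widest.

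The genes whose levels followed RALFL24 most closely were found by Pearson's r over the 6 arrays among 13502 named probe sets. They were AT2G17540 (r = 0.997), AT1G76200 (r = 0.996) and SIM (r = 0.995), where SIM encodes SIAMESE, an inhibitor of the cell cycle known from leaf hairs. The 6 arrays are 3 of each genotype, so the values of r take in the difference between genotypes and are given as a description. SIM had 6.32, 5.01 and 5.55 log2 units in pkl-1, against 7.00, 6.70 and 6.50 in wild type, a larger difference than that of RALFL24 at -1.11 ± 0.32 (SE; limma adjusted p = 0.145). AT2G17540 was at -0.59 ± 0.20 and AT1G76200 at -0.13 ± 0.07 log2 units (SE), and neither passed.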

How the data were processed

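Per the submitters' processing notes, the authors made the deposited log2 values with GCRMA; the log2 scale was read from their range (0.597 to 13.7; array medians 5.03 to 5.13). The GCRMA version, build and annotation were not stated. GCRMA corrects background by probe sequence, which sets the values at the low end. Of 22810 probe sets, 64 controls were left out. By the platform's annotation 13513 probe sets belong to 1 gene and 503 to more, which were not named. Symbols were updated through TAIR10.1's gene table, by gene number or else by symbol, as for RALFL22.

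The difference, pkl-1 minus wild type, was fitted over 22746 probe sets by lmFit and eBayes of limma 3.58.1 (R 4.3.3) with a mean-dependent prior, 2-sided, and tested on simulated data. Arrays have no read depth; their number, 3 per genotype, limits the precision (median SE 0.156 log2 units). The labels call the samples biological replicates but do not say how they were kept apart. The p-values measure the spread between these samples, part of which may be technical. Named are all members and, of the pathway list, the called genes, RALF peptides, receptors, co-receptors and protease that were measured. Those without a symbol in the gene table are given by locus. The 3 genes most like the member of smallest p are named too, and others are marked. Members and lists were chosen with earlier results of these data known. Alternatives were other variance priors, a filter at 2.14 log2 units (the 25th percentile), quantile normalization, median centring, array weights, a replicate block, each array left out, and other lines for the low end. Figures used matplotlib 3.10.9.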

Additional observations from a re-analysis of the deposited data

How the results depend on the processing

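No RALFL gene passed at an adjusted p of 0.05 under any of the 13 alternatives, and 6 were above the low end under each alternative tried. Using every probe set of a gene changes nothing, since each member had 1. The filter on dim probe sets removed RALFL18, RALFL25, RALFL28, ANX1 and ANX2. RALFL24 stayed between -0.67 and -0.39 log2 units (adjusted p 0.0582 to 0.494). The sign of RALFL25 turned with array weights (-0.0039) and quantile normalization (-0.012), and that of CML38 with array weights (-0.20); the cause was not tested. With 1 array left out, differences ran from -0.14 to 0.60 for RALFL22, -0.083 to 0.093 for RALFL25, -0.24 to 0.49 for RALFL33, -0.10 to 0.86 for THE1, -0.017 to 0.23 for ANX1, -0.17 to 0.12 for S1P and -1.41 to 1.35 for CML38, and 123 to 303 of all probe sets passed, against 540 with all 6 arrays, where fewer arrays lower the power.

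In a fit with a replicate block, 1518 probe sets passed in all, and 1 pathway gene did, FER (0.35 ± 0.07 log2 units, SE; adjusted p = 0.0228), and RALFL24 was at an adjusted p of 0.0582; the cause was not tested. RALFL32 and RALFL34 had unadjusted p of 0.0199 and 0.0482 in this limma fit, with adjusted p of 0.145 and 0.24. Deviations from the genotype means correlated at 0.49, -0.02 and 0.58 for replicates 1, 2 and 3. Replicates 1 and 3 of each genotype correlated best with their own number in the other genotype. Replicate 2 of each correlated best with replicate 1 of the other. The labels name no shared batch and replicate 2 had no such match, so that the arrays were not taken as paired.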
